A study of Mus musculus with 6 samples.

Results

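The genes described are 10 regulators of mammary cell identity and hormone response: the hormone receptors Esr1, Pgr and Prlr, the luminal factors Gata3 and Foxa1, the alveolar factor Elf5, the receptor Kit, and the transcription factors Sox9, Sox10 and Trp63. They were taken by symbol from 39179 genes listed for each library, and all 10 were found. RNA-seq was made of 6 grafted tumours in FVB mice, 3 labelled WT (AXL+/+ cells) and 3 labelled AXL KO (AXL-/- cells), both from the MMTV-Neu model. In that model the mouse mammary tumour virus promoter drives the receptor tyrosine kinase Neu (the rat form of ErbB2) in mammary epithelium, and the AXL KO cells lack the receptor tyrosine kinase Axl by label. The host mice, which bring vessels, stroma and immune cells to a graft, are given only by their strain, and the labels do not give their age or say how many cell lines or clones were grafted or which libraries share one.

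The mammary duct is built of an inner luminal and an outer basal, or myoepithelial, layer. Luminal cells divide into hormone-sensing cells, which carry the estrogen, progesterone and prolactin receptors and depend on Gata3 and Foxa1, and secretory cells and their progenitors, which are marked by Kit and Elf5. Basal cells depend on Trp63 (p63), while Sox9 and Sox10 are known for progenitor cells. Tumours of the MMTV-Neu model are known as luminal and as largely hormone-independent.

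The libraries held 26541009 to 32491807 counts in genes, at which 3 reads correspond to a counts-per-million (CPM) value of 0.0927 to 0.110. Axl itself stood at 60.4 ± 8.95 CPM in WT and 60.1 ± 13.1 CPM in AXL KO libraries (mean ± SD, n = 3 each), with a log2 fold change of -0.01 and an adjusted p of 0.978 in the quasi-likelihood test of edgeR. The Axl count therefore does not separate the groups, the labels do not say which part of the gene was altered, and a graft also holds host cells, so WT and AXL KO below are the labels of the libraries. Nothing in the labels says that the replicates came from separate animals or cultures, and p-values then measure only the spread between these samples. Of 8 defining markers of mammary epithelium 7 were tested, with summed levels of 11538 to 12843 CPM in WT and 11563 to 13759 CPM in AXL KO libraries. Erbb2 made up most of these sums, and without it, a split made after the values were seen, they were 4670 to 4983 CPM in WT and 3369 to 3741 CPM in AXL KO libraries, without overlap. Krt19, a simple keratin of that list, had 0 to 8 counts, Krt8, Krt18 and Epcam were abundant, and 1 marker rose and 5 fell. The riser was Erbb2, the mouse gene whose rat form is the model's oncogene (7193 ± 655 to 9207 ± 1007 CPM, log2 0.36, edgeR adjusted p = 0.026). Whether its count also holds reads of the rat transgene was not tested. The call of Erbb2 was lost without WT library 1 or 3 or AXL KO library 1 or 3. It was also lost with its chromosome's median subtracted (0.244). In bulk RNA, fewer cells of a type and less RNA per cell cannot be told apart.

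RPKM, the CPM divided by exon length in kilobases, allows levels of different genes to be compared, with the union of annotated exons as length. On this scale Sox10 was the highest of the 10 genes, at 191 ± 15.3 RPKM over the 6 libraries (SD), above 98.9% of tested genes. Kit followed with 106 ± 32.8 RPKM, and no library of Kit overlapped the range of Sox10. Elf5 (41.2 ± 2.30 RPKM), Gata3 (35.7 ± 3.65) and Sox9 (32.9 ± 5.27) formed a middle group. Within that group neighbouring ranges overlapped, although Elf5 lay above Gata3 in 6 of 6 libraries and Gata3 above Sox9 in 5 of 6.

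Prlr was lower at 12.8 ± 1.29 RPKM, and the steroid hormone receptors were lower still. Esr1 reached 1.06 ± 0.399 RPKM, above 21.1% of tested genes. Trp63 stood at 0.0788 ± 0.0193 RPKM, above 1.27% of tested genes. Pgr had 24 counts in the 6 libraries together, and Foxa1 had none. Kit, Elf5, Gata3, Sox9, Sox10 and Prlr were thus abundant in these grafts, while Trp63 had 12 to 25 reads in a library and Pgr at most 10.

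**Figure D1:**
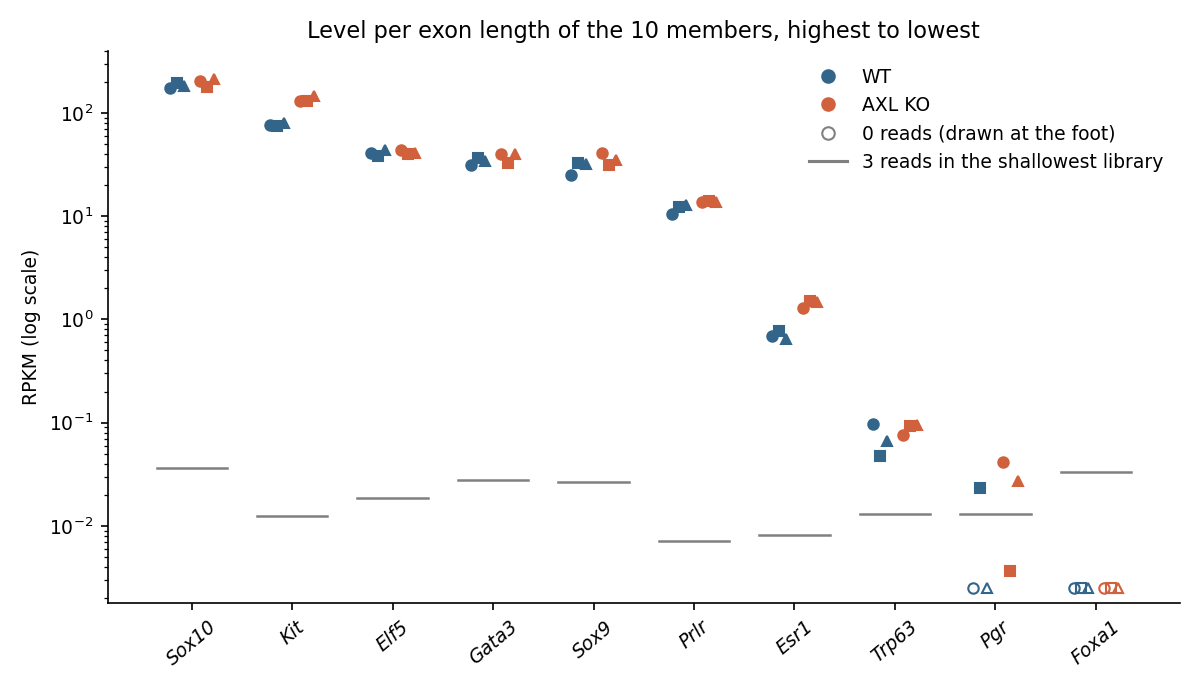
RPKM of each of the 10 genes on a log axis, 1 point per library, coloured by group, with open points at the foot for 0 reads and a grey line at 3 reads in the shallowest library. Sox10 and Kit stand apart at the top, at means of 191 and 106 RPKM, and Foxa1 is at 0 in all 6 libraries.

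Promoter sequence is shown for the genes with a call and for the gene without reads, to set out what lies before their starts. Of the 10 genes 7 had an entry among the RefSeq promoters of GRCm38.p6, which run from 250 bases before a start site to 50 after it. Printed here are only the bases before the start that lie in no annotated exon. Capitals mark matches, on either strand, to the SOX core ACAAAG, the forkhead core TGTTTAC, the ETS core AGGAAG and the GC box GGGCGG. The core of GATA factors, AGATAA, and the estrogen receptor half-site, AGGTCA, were also searched and had no match in these 3 stretches. The stretches are Kit at chr5:75574737-75574915 (plus strand), the second listed start of Esr1 at chr10:4709908-4710154 (plus strand) and Foxa1 at chr12:57546122-57546361 (minus strand).
Kit: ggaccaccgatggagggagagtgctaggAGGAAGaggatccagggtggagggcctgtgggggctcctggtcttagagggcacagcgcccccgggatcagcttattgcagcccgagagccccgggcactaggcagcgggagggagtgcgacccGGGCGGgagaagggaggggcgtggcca
Esr1: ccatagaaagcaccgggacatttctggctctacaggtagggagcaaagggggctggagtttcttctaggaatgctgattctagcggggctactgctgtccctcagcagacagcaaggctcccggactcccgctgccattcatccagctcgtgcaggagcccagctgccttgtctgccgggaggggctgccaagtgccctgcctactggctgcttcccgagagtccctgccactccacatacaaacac
Foxa1: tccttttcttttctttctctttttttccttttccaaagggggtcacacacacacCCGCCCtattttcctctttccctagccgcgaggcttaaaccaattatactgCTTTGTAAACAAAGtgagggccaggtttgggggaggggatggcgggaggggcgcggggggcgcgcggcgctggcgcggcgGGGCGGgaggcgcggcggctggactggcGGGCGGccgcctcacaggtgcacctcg

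The Kit stretch held 1 ETS core and 1 GC box, motifs present in 35.4% and 35.7% of all 32851 promoter windows. The Esr1 stretch held none of the 6 motifs. The Foxa1 stretch held 3 GC boxes, and 1 forkhead core that overlaps 2 SOX cores on opposite strands. SOX cores occurred in 18.7% and forkhead cores in 3.65% of all windows, GATA cores in 11.2% and estrogen receptor half-sites in 16.3%. The full windows of Kit (69.0% GC), Foxa1 (62.33%) and the second start of Esr1 (59.33%) were richer in G and C than the median window (52.67%). The full window of the first listed start of Esr1 (46.33% GC) held 1 ETS core. None of it is printed, as that window begins in an annotated exon. The shares are over full windows of 300 bases, while the printed stretches are shorter. The full window of Foxa1 held 4 SOX cores. All these matches describe letters only.

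Between the groups, 2 of the 10 genes passed the test, Esr1 and Kit, and both rose in the libraries labelled AXL KO. Of the other members, 6 were tested and not called, and Pgr and Foxa1 were too low for the test. Among all 14850 tested genes 37.4% were called, 19.1% higher and 18.3% lower, so 2 of 8 tested genes is no larger a share than the background. No member was lower, in edgeR at an unadjusted p under 0.05, in DESeq2 or in limma-voom. All 8 tested members had a log2 fold change above 0, with a median of 0.23, against 50.03% of all tested genes above 0 and a median of 0.00032. Values of AXL KO libraries lay wholly above those of WT libraries for 3 members, Esr1, Prlr and Kit, and such a separation held for 26.9% of all tested genes, or 52.1% with either group above. Each of the 8 tested members had at least 10 counts in every library, so none entered the test through 1 group alone.

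**Figure D2:**
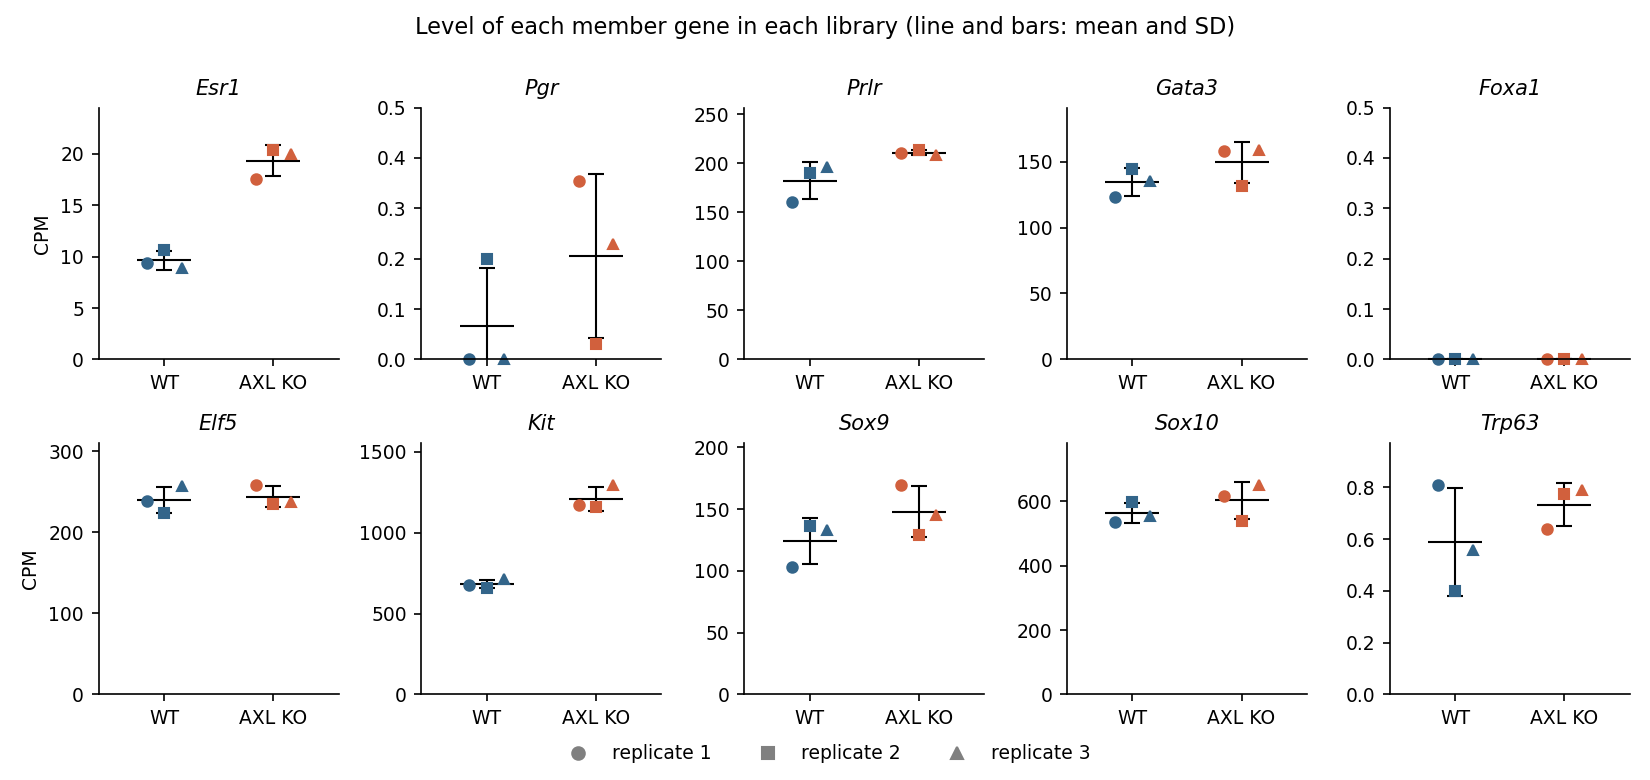
CPM of each of the 10 genes in each library (marker shape: replicate number), with the mean and SD of each group, on an axis of its own from 0. Esr1 and Kit are separated by wide gaps, Prlr by a narrow one, and the groups of the other genes overlap.

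Esr1 encodes estrogen receptor alpha, the receptor through which estrogen drives ductal growth. The gene lies at chr10:4611593-5005614 on the plus strand of GRCm38, with 13661 bases of exon. It was at 9.42, 10.6 and 8.86 CPM in WT libraries 1 to 3 and at 17.6, 20.4 and 20.04 CPM in AXL KO libraries 1 to 3. The lowest AXL KO library was well above the highest WT library, and replicates of a group lay close together. Esr1 thus rose 2.01-fold in the libraries labelled AXL KO, from 9.63 ± 0.889 to 19.4 ± 1.53 CPM. Its log2 fold change was 1.01 ± 0.11 (SE; 95% interval 0.75 to 1.27), with an edgeR adjusted p of 0.00032. With each library left out in turn the log2 fold change stayed between 0.95 and 1.09 and the adjusted p between 0.00068 and 0.0031. Even after the rise Esr1 stood at 1.42 RPKM, below Prlr in every library.

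Of 6 tested genes within 500 kb, a window set after the data were seen, none rose in edgeR, also at an unadjusted p under 0.05. Mthfd1l, a mitochondrial folate enzyme, fell by 1.16 on the log2 scale (edgeR adjusted p = 0.000871). Akap12, a scaffold of protein kinase A, fell from 878 ± 118 to 627 ± 7.97 CPM (log2 -0.49, edgeR adjusted p = 0.00576). The median log2 fold change over the tested genes of chromosome 10 was -0.20.

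Pgr encodes the progesterone receptor, itself a known estrogen target. It had 0, 6 and 0 counts in WT libraries and 10, 1 and 7 in AXL KO libraries, and the groups overlap. With a total of 24 counts it was not tested, and in a fit without the filter its log2 fold change was 1.48 with an edgeR adjusted p of 0.323. A difference in Pgr was not shown. Esr2, estrogen receptor beta, had 17 to 41 counts in a library, overlapping groups, and a log2 fold change of 0.32 (edgeR adjusted p = 0.535). These values do not show that Pgr or Esr2 stayed at the same level.

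Genes known to respond to estrogen or progesterone did not follow Esr1 as a group. Of 14 listed, 10 were tested, of which 1 rose and 4 fell, and their median was -0.70 on the log2 scale. With libraries left out the median ran from -0.85 (without AXL KO library 2) to -0.44 (without WT library 1). Xbp1, a transcription factor of the secretory pathway, was the gene that rose, from 641 ± 30.3 to 1101 ± 84.3 CPM (log2 0.78, edgeR adjusted p = 0.000201). Wnt4, the ligand that relays progesterone to neighbouring cells, fell from 0.931 ± 0.376 to 0.221 ± 0.0322 CPM (log2 -2.05, edgeR adjusted p = 0.00372). Areg, the growth factor amphiregulin that relays estrogen, fell by 1.94 on the log2 scale to 0.187 CPM (edgeR adjusted p = 0.00378). Both Wnt4 and Areg were at a level of few reads in AXL KO libraries.

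Igfbp4, an insulin-like growth factor binding protein, fell from 91.9 ± 18.1 to 32.4 ± 11.8 CPM (log2 -1.50, edgeR adjusted p = 0.00151). Greb1, a cofactor and direct target of the estrogen receptor, had 5, 34 and 3 counts in WT and 37, 9 and 23 in AXL KO libraries and did not pass (log2 0.67, edgeR adjusted p = 0.527). Without WT library 2, which held the 34 counts, Greb1 passed with an adjusted p of 0.0451, and the list then had 2 genes higher. In the same run Myb of that list passed as lower (log2 -0.55, edgeR adjusted p = 0.0321). Fst, also of the list, passed as lower without AXL KO library 2 (log2 -1.56, edgeR adjusted p = 0.0378). Tnfsf11 (RANKL), the progesterone relay, had 1 to 13 counts in a library and was not tested, and Tff1 was listed at 0 in all libraries. Ccnd1, cyclin D1, stood at 562 and 549 CPM (log2 -0.03, edgeR adjusted p = 0.801).

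Among 14 cofactors of nuclear hormone receptors, all tested, 5 rose and 1 fell, and the median log2 fold change was 0.18. For hormone receptor cofactors that median was 0.067 without WT library 1, 0.11 without AXL KO library 3 and 0.34 without WT library 2. Tle3, a corepressor, rose from 64.4 ± 7.31 to 95.4 ± 12.2 CPM (log2 0.56, edgeR adjusted p = 0.00597). Med1, the Mediator subunit that binds nuclear receptors, rose from 67.7 ± 11.01 to 95.3 ± 2.99 CPM (log2 0.49, edgeR adjusted p = 0.00977), a call lost with the median of its chromosome subtracted (0.0702). Ncoa2, a steroid receptor coactivator, rose by 0.42 on the log2 scale (edgeR adjusted p = 0.019). The call of Ncoa2 was lost without WT library 3 (0.0671) or AXL KO library 3 (0.0645). Nr2f2, an orphan receptor of luminal and stromal cells, fell by 0.41 (edgeR adjusted p = 0.0215). The count of risers was 2 without WT library 3 or AXL KO library 3 and 3 without AXL KO library 1, and the call of Nr2f2 was lost without WT library 1, AXL KO library 1 or AXL KO library 3. Tfap2c, a luminal AP-2 factor, was at 260 and 290 CPM with a log2 fold change of 0.15 (edgeR adjusted p = 0.121).

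Prlr encodes the prolactin receptor, which signals through Jak2 and Stat5 to milk protein genes. The gene lies at chr15:10177238-10349180 on the plus strand. WT libraries had 160.8, 190.0 and 196 CPM and AXL KO libraries 210.1, 214 and 208 CPM. All AXL KO values were above all WT values, with the lowest WT library furthest away. The log2 fold change of Prlr was 0.21 ± 0.09 (SE; 95% interval 0.02 to 0.40) and it missed the threshold, with an edgeR adjusted p of 0.0832. Genes of chromosome 15 had a median log2 fold change of -0.29 over 568 tested genes, and with that median subtracted Prlr passed at a log2 fold change of 0.50 (adjusted p = 0.0029).

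Downstream of Prlr, both Stat5 genes rose. Stat5a was at 36.4, 42.4 and 36.7 CPM in WT and at 110.6, 65.7 and 112 CPM in AXL KO libraries. The AXL KO values all lay above WT, with AXL KO library 2 closest. This gave a log2 fold change of 1.32 for Stat5a (edgeR adjusted p = 0.000967). Stat5b, its close paralogue, rose from 74.1 ± 5.93 to 137 ± 19.5 CPM (log2 0.88, edgeR adjusted p = 0.000603), and reads alike in both copies can be split uncertainly or lost as not unique. Cish, a feedback inhibitor induced by Stat5, rose from 28.4 to 36.2 CPM (log2 0.35, edgeR adjusted p = 0.0169), but not without AXL KO library 1 (0.0746) or with its chromosome's median subtracted (0.251).

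The whole prolactin and Stat5 list had 14 genes, of which 12 were tested and 3 rose, and the median log2 fold change was 0.27. Without AXL KO library 2 the number of risers was 5. Socs3, another feedback inhibitor, was at 7.33 and 4.92 CPM (log2 -0.58, edgeR adjusted p = 0.0823) and was called lower by DESeq2 (adjusted p = 0.0486) and with its chromosome's median subtracted (0.0379). Ghr, the related growth hormone receptor, stood at 36.2 and 36.3 CPM (log2 0.0015, edgeR adjusted p = 0.994), and Jak2 had a log2 fold change of 0.10 (edgeR adjusted p = 0.316). Prl, the ligand, was listed at 0 in every library. Of the milk protein genes, Csn3 (kappa-casein) was very abundant at 32980 ± 1604 CPM in WT and 37414 ± 3441 CPM in AXL KO libraries (log2 0.18, edgeR adjusted p = 0.144), while Csn2 (beta-casein) had 3 to 13 counts and Wap 0 to 4. Lalba, a whey protein, was at 145 ± 47.3 and 216 ± 66.5 CPM, with overlapping groups (log2 0.58, edgeR adjusted p = 0.123), and passed without AXL KO library 2 (0.020) and with its chromosome's median subtracted (0.0399). Csn1s2a, another casein gene, was at 0.807 ± 0.604 and 2.38 ± 1.94 CPM, with overlapping groups (log2 1.52, edgeR adjusted p = 0.0886). DESeq2 called Csn1s2a higher (adjusted p = 0.0274). With edgeR it passed without the filter (0.0436), without WT library 2 (0.0384) or without AXL KO library 2 (0.0359).

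**Figure D3:**
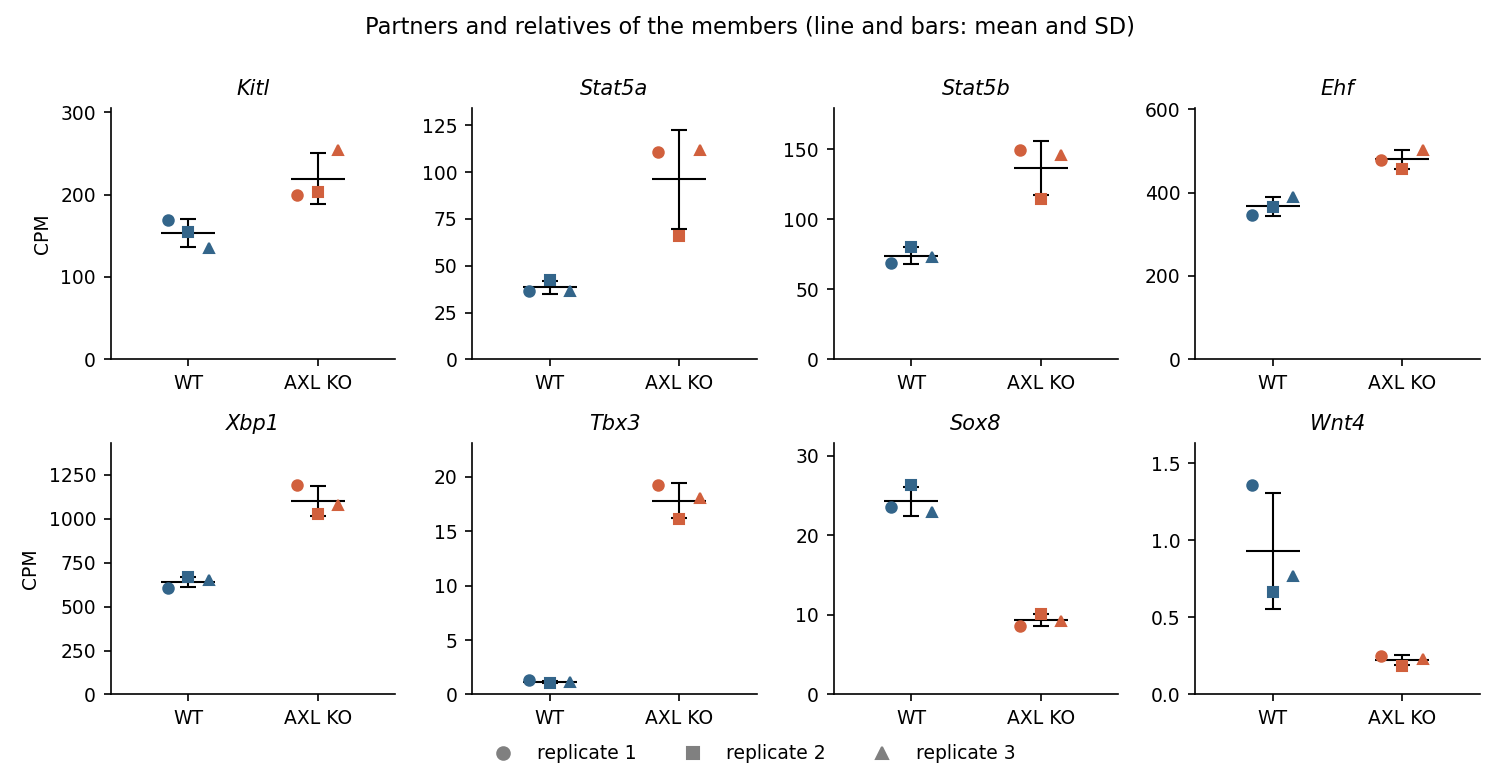
CPM of 8 partners and relatives of the members in each library, with mean and SD per group, each on its own axis from 0. Kitl, Stat5a, Stat5b, Ehf, Xbp1 and Tbx3 are higher and Sox8 and Wnt4 lower in all 3 AXL KO libraries than in all WT libraries.

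Gata3 encodes the zinc finger factor that maintains luminal fate. It lies at chr2:9857078-9890034 on the minus strand. It was at 124, 144 and 136 CPM in WT and 158, 132 and 159 CPM in AXL KO libraries. AXL KO library 2 fell inside the WT range, so the groups overlap. The log2 fold change of Gata3 was 0.15 ± 0.10 (SE; 95% interval -0.07 to 0.37), with an edgeR adjusted p of 0.241. Without a statement on strand in counting, reads of Gata3 and its neighbours cannot always be told apart: 9230102O04Rik shares 77 exon bases with it and had 13 to 42 counts, and antisense Gm13256 had none. Gata3 also marks T cells and innate lymphoid cells, and of 9 tested markers of these, of 10 listed, 6 rose, with summed levels of 95.7 to 126 CPM in WT and 135 to 149 CPM in AXL KO libraries. Most of that sum was Rora and Thy1, which other cells express too, and without them it was 9.31 to 14.8 CPM in WT and 24.05 to 27.7 CPM in AXL KO libraries. The T cell receptor complex gene Cd3g rose 5.27-fold, Cd3d 4.33-fold and Cd3e 4.05-fold, and the kinase Lck 3.32-fold (edgeR adjusted p of 0.000332 to 0.00249), while the call of Rora was lost with any 1 library left out other than WT library 2. Il13 of that list was at 0, and the part of these cells in the level of Gata3 was not tested.

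Foxa1 encodes the pioneer factor that opens chromatin for the estrogen receptor. It lies at chr12:57540628-57546916 on the minus strand and had 0 counts in all 6 libraries. A count of 0 allows up to 3 reads per library, or 0.0332 RPKM for Foxa1 in the shallowest. Such a count is unusual for tumours of luminal type, and the counts do not tell whether Foxa1 was not expressed or its reads were not counted. In all, 5622 of 22740 protein-coding genes had no count in any library. The nearest tested gene, Mipol1, 43429 bases away, was counted in both groups at 10.2 ± 1.47 and 9.50 ± 0.660 CPM (edgeR adjusted p = 0.590). Foxa2, a relative of Foxa1, was also at 0, while Foxa3, named after its values were seen, was present and fell from 4.49 ± 2.15 to 0.910 ± 0.558 CPM (log2 -2.28, edgeR adjusted p = 0.00664).

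Genes of the hormone-sensing luminal state moved in both directions. Of 13 listed, 11 were tested, of which 4 rose and 5 fell, and their median was -0.26 on the log2 scale, which turned to 0.11 when genes under a mean log2 CPM of 2 were left out. Tbx3, a T-box repressor of hormone-sensing cells, was at 1.29, 1.03 and 1.12 CPM in WT and 19.3, 16.1 and 18.1 CPM in AXL KO libraries. The groups were far apart, and the 15.5-fold rise of Tbx3 (log2 3.96, edgeR adjusted p = 1.79e-06) was larger than the fold of Esr1. Wfdc2, a secreted protease inhibitor, fell from 4.68 ± 0.276 to 0.413 ± 0.449 CPM (log2 -3.45, edgeR adjusted p = 0.00108), and Prom1, a surface marker of hormone-sensing cells, fell from 358 ± 30.5 to 235 ± 8.49 CPM (log2 -0.60, edgeR adjusted p = 0.000745). The luminal keratins Krt8 (log2 -0.44) and Krt18 (log2 -0.60) fell as well, with edgeR adjusted p of 0.0037 and 0.00314. Both keratin genes lie on chromosome 15, and with its median subtracted neither passed (0.197 and 0.0575).

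**Figure D4:**
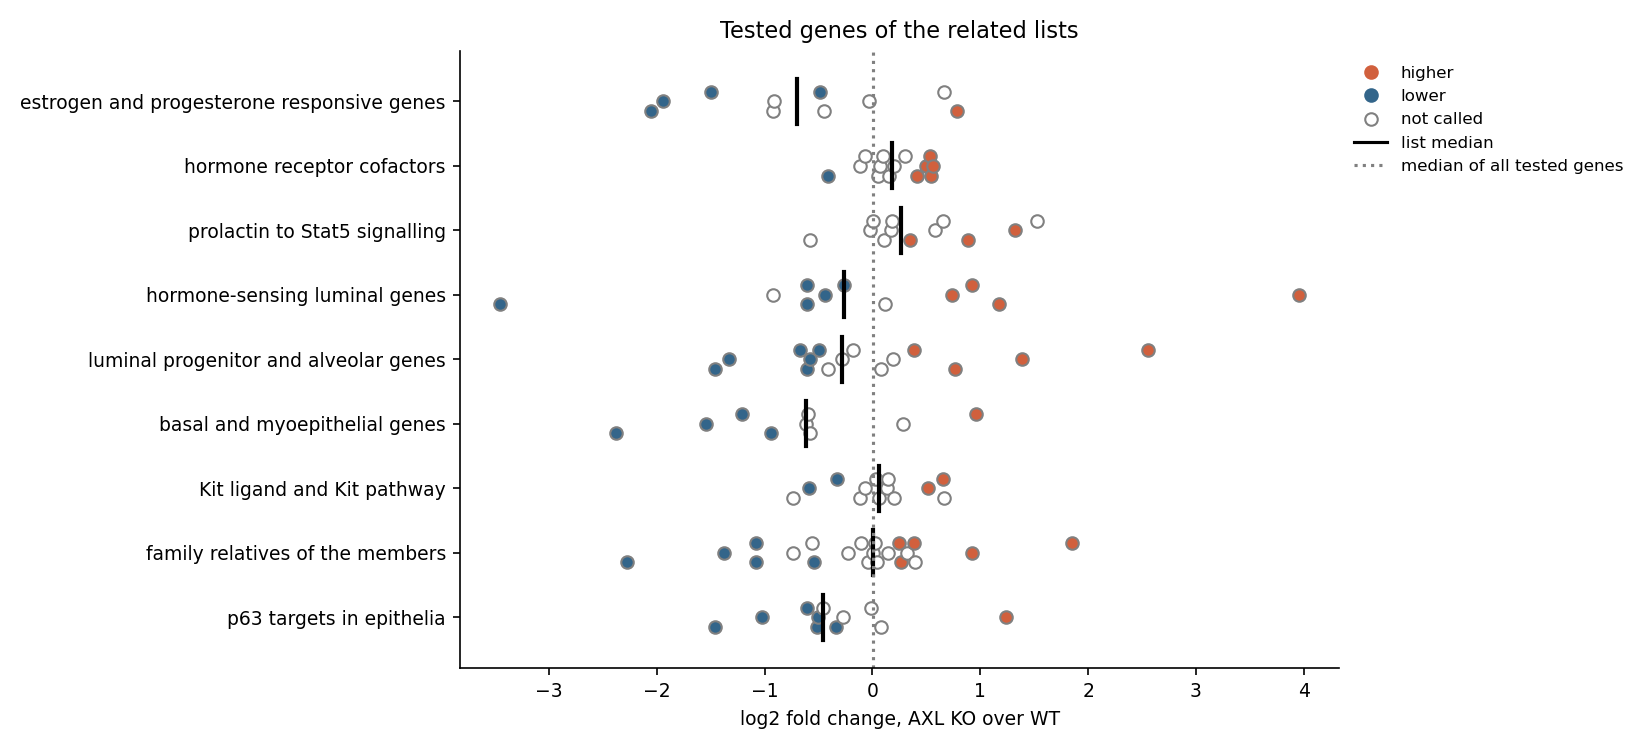
Log2 fold change, AXL KO over WT, of every tested gene of 9 related lists, coloured by call, with the median of each list and of all tested genes. Calls in both directions occur in 8 of the lists, and the medians run from -0.70 for estrogen and progesterone responsive genes to 0.27 for prolactin and Stat5 genes.

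Elf5 encodes the ETS factor that specifies secretory alveolar cells, downstream of prolactin. It lies at chr2:103411688-103450989 on the plus strand. It was at 239, 224 and 257 CPM in WT and 259, 235 and 238 CPM in AXL KO libraries. The groups overlap almost wholly. Its log2 fold change was 0.02 ± 0.08 (SE; 95% interval -0.16 to 0.20), with an edgeR adjusted p of 0.844, and its sign turned without WT library 2 or AXL KO library 1 (both -0.02). The interval of Elf5 excludes the size of the rises of Kit and Esr1. Its ETS relatives changed in opposite directions, with Ehf higher (367 ± 22.1 to 479 ± 23.7 CPM; log2 0.39, edgeR adjusted p = 0.00482) and Elf3 lower (18.6 ± 0.766 to 12.8 ± 1.06 CPM; log2 -0.54, edgeR adjusted p = 0.00378).

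Kit encodes the receptor tyrosine kinase for stem cell factor and marks luminal progenitors. It lies at chr5:75574916-75656722 on the plus strand. It was at 675, 660 and 713 CPM in WT and at 1170.1, 1158 and 1297 CPM in AXL KO libraries. Replicates lay within narrow bands and the bands were far apart. Kit rose 1.77-fold in the libraries labelled AXL KO, from 683 ± 27.6 to 1208 ± 77.1 CPM. The log2 fold change was 0.82 ± 0.08 (SE; 95% interval 0.65 to 0.998), with an edgeR adjusted p of 0.00011. With each library left out in turn it lay between 0.78 and 0.86, and the adjusted p between 0.00016 and 0.00128.

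The gap between Kit and Sox10 was narrower in AXL KO libraries. Per length, Kit stood at 0.378 to 0.441 of the level of Sox10 in WT libraries and at 0.649 to 0.734 in AXL KO libraries. Against Elf5, the ratio of Kit was 1.83 to 1.94 in WT and 2.98 to 3.60 in AXL KO libraries. Neither ratio overlapped between the groups. Both ratios restate the rise of Kit beside 2 genes that were not called, and are no separate result.

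Kitl, stem cell factor itself, also rose. WT libraries had 169.6, 155 and 135 CPM and AXL KO libraries 199, 204 and 255 CPM, without overlap. The fold was 1.43 (log2 0.52 ± 0.12, SE; edgeR adjusted p = 0.0091). In the list of Kit ligand and pathway genes, 13 were tested, of which 2 rose and 2 fell, and the median log2 fold change was 0.06, between 0.028 and 0.14 with libraries left out (lowest without AXL KO library 2, highest without WT library 2). The other riser was Pik3r1, a regulatory subunit of phosphoinositide 3-kinase (210.3 ± 11.8 to 332 ± 15.8 CPM; log2 0.66, edgeR adjusted p = 0.000333). Spry4, a feedback inhibitor of receptor kinases, fell from 78.2 ± 9.42 to 52.0 ± 3.53 CPM (log2 -0.59, edgeR adjusted p = 0.00267). Sh2b3, an adaptor that dampens Kit signalling, fell by 0.33 (edgeR adjusted p = 0.0129), a call lost without AXL KO library 1 (0.0536).

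Mast cells also carry Kit. Of 8 mast cell markers 2 were tested and 1, the tryptase Tpsab1, fell (2 without WT library 2 or AXL KO library 2). Their summed level was 7.88 to 23.0 CPM in WT and 1.51 to 1.70 CPM in AXL KO libraries, most of it Tpsab1, and without Tpsab1 the sums of 0.665 to 2.65 and 1.39 to 1.49 CPM overlap. Hdc, the other tested marker, was at 0.361 ± 0.0105 and 0.701 ± 0.253 CPM, with all AXL KO values above WT (log2 0.94, edgeR adjusted p = 0.0556), Cpa3, Mcpt4 and Cma1 overlapped, and the defining Fcer1a and Ms4a2 were at 0. Their part in the level of Kit was not tested. Of the genes within 500 kb of Kit, none rose in edgeR, also at an unadjusted p under 0.05. Pdgfra, a neighbouring receptor kinase gene, stood at 22.0 ± 4.66 and 21.4 ± 1.65 CPM (edgeR adjusted p = 0.856). Kdr, the endothelial VEGF receptor, fell by 0.38 (edgeR adjusted p = 0.0277), and endothelial markers had 7 of 8 genes lower, with summed levels of 329 to 368 CPM in WT and 193 to 257 CPM in AXL KO libraries. The call of Kdr was lost without WT library 2 or 3 or AXL KO library 1 or 3.

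Other genes of luminal progenitors and alveolar cells were split. Of 15 tested, 4 rose and 6 fell, and the median log2 fold change was -0.29. Wfdc18, a secreted alveolar protein, rose from 544 ± 31.4 to 1427 ± 286 CPM (log2 1.39, edgeR adjusted p = 0.000159), and Ltf, lactoferrin, from 1.96 ± 0.311 to 11.5 ± 3.54 CPM (log2 2.55, edgeR adjusted p = 0.000175). Mfge8, a milk fat globule protein that bridges dying cells to phagocytes, fell from 87.7 ± 3.12 to 31.9 ± 5.73 CPM (log2 -1.46, edgeR adjusted p = 5.96e-05). Lcn2, the iron carrier lipocalin, fell from 5804 ± 152 to 3644 ± 133 CPM (log2 -0.67, edgeR adjusted p = 0.000221). Without WT library 1 or AXL KO library 3 the number that fell was 3, and for luminal progenitor and alveolar genes the median log2 fold change was -0.13 without WT library 3, -0.18 without AXL KO library 3 and -0.059 without genes whose mean log2 CPM was under 2.

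Sox9 encodes an HMG-box factor of progenitor cells. It lies at chr11:112782224-112787760 on the plus strand. It was at 103, 136 and 133 CPM in WT and 169.7, 129 and 145 CPM in AXL KO libraries. AXL KO library 2 lay below 2 of the WT libraries, and the groups overlap. Sox9 had a log2 fold change of 0.25 ± 0.13 (SE; 95% interval -0.04 to 0.55), with an edgeR adjusted p of 0.159. Sox9 also defines cartilage, and of 3 tested markers of it, of 6 listed, 2 fell, with summed levels of 1698 to 1924 CPM in WT and 1122 to 1308 CPM in AXL KO libraries. Most of that sum was Col9a1 and Comp. Col9a1 stood at 1082 ± 75.8 CPM in WT and 1062 ± 56.9 CPM in AXL KO libraries (edgeR adjusted p = 0.818). Comp fell from 714 ± 70.2 to 154 ± 38.4 CPM (edgeR adjusted p = 3.66e-05). Col2a1 also fell, with 58, 46 and 34 counts in WT and 2, 20 and 3 in AXL KO libraries (log2 -2.55, edgeR adjusted p = 0.0088). Acan of that list was at 0 in all libraries, and the part of such cells in Sox9 was not tested.

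Sox10 encodes the SoxE factor of neural crest and of mammary progenitors. It lies at chr15:79154908-79165240 on the minus strand. It was at 537, 598 and 554 CPM in WT and 617, 540.1 and 651 CPM in AXL KO libraries. The groups overlap, with AXL KO library 2 near the foot of the WT range. The log2 fold change of Sox10 was 0.10 ± 0.09 (SE; 95% interval -0.10 to 0.30), with an edgeR adjusted p of 0.411. Like Prlr it lies on chromosome 15, and with the chromosome's median subtracted it passed, at a log2 fold change of 0.39 (adjusted p = 0.0112).

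Schwann cells and melanocytes carry Sox10 too. Of 11 markers 5 were tested and 1, S100b, fell (99.8 ± 7.09 to 28.0 ± 7.17 CPM), 2 rose without WT library 2 and 1 without AXL KO library 2, and the summed level was 155 to 169 CPM in WT and 95.4 to 106 CPM in AXL KO libraries. Most of that sum was S100b and Mbp. Mbp stood at 58.8 ± 7.73 CPM in WT and 65.8 ± 1.37 CPM in AXL KO libraries (edgeR adjusted p = 0.226). Among the defining markers, Foxd3 and Dct had at most 1 count in a library and Sox2 at most 2. Sox8, the third SoxE gene, fell where Sox9 and Sox10 did not pass, from 24.3 ± 1.84 to 9.36 ± 0.781 CPM (log2 -1.37, edgeR adjusted p = 4.68e-05). The difference between Sox8 and its relatives was not tested. Sox4 was at 336 and 345 CPM (log2 0.04, edgeR adjusted p = 0.719), and Sox18, a factor of endothelium, fell by 1.08 (edgeR adjusted p = 0.000416).

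Over 29 relatives of the members, 21 were tested, 5 rose and 5 fell, and the median log2 fold change of 0.0091 changed sign in 4 alternatives. Flt3, a receptor kinase of the family of Kit, rose from 0.502 ± 0.0852 to 1.82 ± 0.157 CPM (log2 1.85, edgeR adjusted p = 0.000536). Gata2 stood at 1.26 ± 0.187 and 0.755 ± 0.185 CPM, with non-overlapping values and an edgeR adjusted p of 0.054. Gata4 and Trp73 were at 0. The number of relatives that rose was 3 without AXL KO library 1 or 2.

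Trp63 encodes p63, which basal cells of stratified and glandular epithelia require. It lies at chr16:25683763-25892102 on the plus strand. It had 22, 12 and 16 counts in WT and 18, 25 and 24 in AXL KO libraries, which is 0.810, 0.399 and 0.558 CPM against 0.638, 0.772 and 0.788 CPM. WT library 1 held the highest value of all, and the groups overlap. Its log2 fold change was 0.33 ± 0.31 (SE; 95% interval -0.37 to 1.03), with an edgeR adjusted p of 0.435. The interval does not exclude a rise of the size of that of Esr1.

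Basal keratins were lower in reads than Trp63. Krt5 had at most 3 counts in a library, Krt14 at most 1 and Krt17 at most 6, and Krt6a and Krt15 were at 0. Of 16 basal and myoepithelial genes 9 were tested, 1 rose and 4 fell, and the median log2 fold change was -0.62. Lmo2, a LIM-domain cofactor also expressed in blood and endothelial cells, rose from 6.95 ± 0.858 to 13.5 ± 0.492 CPM (log2 0.96, edgeR adjusted p = 0.000603). Mylk, the myosin light chain kinase, fell from 33.2 ± 5.33 to 14.3 ± 5.71 CPM (log2 -1.21, edgeR adjusted p = 0.00493), and Dsg3, a desmosomal cadherin, from 1.27 ± 0.369 to 0.238 ± 0.0864 CPM (log2 -2.38, edgeR adjusted p = 0.00143). The number that fell was 2 without WT library 1 or 3 or AXL KO library 1 or 3, and 7 without AXL KO library 2, where the median log2 fold change, basal and myoepithelial genes, was -0.98, against -0.40 without AXL KO library 1.

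Of 13 genes known as p63 targets 11 were tested, 1 rose and 6 fell, and the median log2 fold change was -0.46. Fermt1, an integrin activator of epithelia, rose from 23.8 ± 3.81 to 56.3 ± 7.27 CPM (log2 1.24, edgeR adjusted p = 0.000262). Itga3, an integrin subunit, fell by 0.51 (edgeR adjusted p = 0.002), Bmp7, a growth factor, by 1.46 (edgeR adjusted p = 0.00419), and Igfbp3, which binds insulin-like growth factors, by 0.51 (edgeR adjusted p = 0.0046). Skin keratinocyte markers, which could carry Trp63 from host skin, summed to 2.72 to 3.07 CPM in WT and 2.83 to 3.15 CPM in AXL KO libraries, with Ivl, Krt15 and Flg at 0. Of 8 such markers 2 were tested, of which 1 rose and 1 fell.

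**Figure D5:**
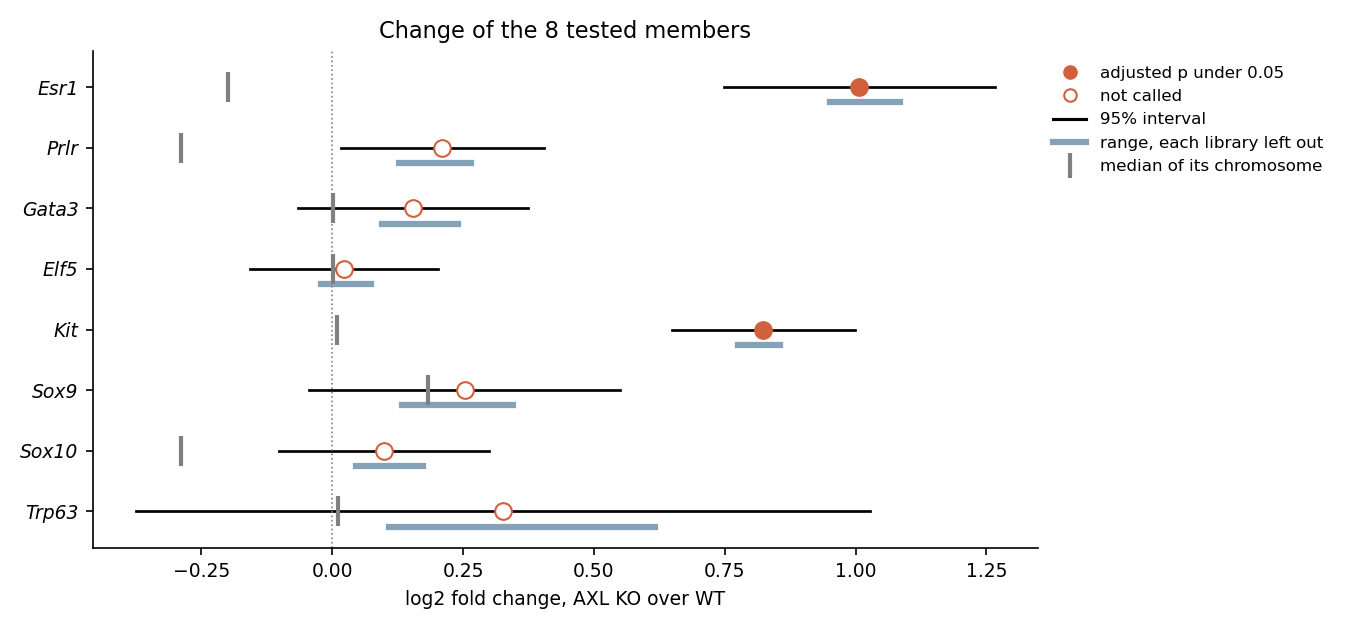
Log2 fold change, AXL KO over WT, of the 8 tested genes with the 95% interval (black), the range with each library left out (blue) and the median of the gene's chromosome (grey tick), filled where the adjusted p was under 0.05. The intervals of Esr1 and Kit lie far from 0, that of Prlr touches 0.02, and those of the other 5 genes include 0.

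Across the 9 lists together, with each gene counted once, 24 genes rose and 33 fell. Of all 14850 tested genes 19.1% were called higher and 18.3% lower. The lists were chosen with earlier results of these data known. The authors' deposited table, with its sign turned to AXL KO over WT, gave Esr1 a log2 fold change of 0.99 (adjusted p = 1.71e-11, DESeq2) and Kit 0.82 (adjusted p = 2.5e-18, DESeq2). In the authors' deposited table Prlr stood at 0.20 (adjusted p = 0.108, DESeq2), and none of the other members had an adjusted p under the threshold of 0.05. Fibroblast, adipocyte and macrophage markers, the remaining host cells considered, had overlapping summed levels in the 2 groups.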

How the data were processed

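Tumour graft RNA was sequenced in 6 libraries, grouped by their titles. Per the submitters' processing notes, CASAVA 1.8, TopHat2 2.0.10 on GRCm38, HTSeq 0.5.3 and DESeq2 1.4.5 were used, with settings and strand not given in the sources used here. The authors deposited raw counts per gene and library. They also deposited a comparison table with a signal per library (count divided by a size factor, within a relative deviation of 5.15e-10), log2 fold changes of WT over AXL KO, p-values and a test score. The 5 rows that name no gene were left out of library sizes, and reads aligned to several places took 25.7% to 29.0% of the lines.

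Counts were tested with edgeR 4.0.16 in R 4.3.3 (TMM, filterByExpr at a minimum count of 10, quasi-likelihood test, group only), with Benjamini-Hochberg adjustment over 14850 of 21716 genes with a count and a threshold of 0.05. The design has 4 residual degrees of freedom, and an exact permutation test of 3 against 3 could not go below p = 0.1. Replicates differed by more than sampling noise (chi-square per gene of 11.7 to 31.3), so each library counted once. CPM used TMM-scaled sizes, and RPKM the union of GENCODE M21 exons. Alternatives were DESeq2 1.42.0, limma 3.58.1 (voom), other scalings and filters, a replicate block, each library left out, a threshold of 0.01 and subtraction of chromosome medians. The steps were tested on simulated data. The 10 genes and the lists were chosen with earlier results of these data known. Named are all members, the 4 smallest p of a list, direct partners and markers. Neighbours within 500 kb, marker sums without their dominant genes, and Myb, Fst and Csn1s2a were added after the values were seen. Some genes of the lists are counted but not reported here by name. Intervals and the 3-read limit cover counting error or replicate spread only.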

Additional observations from a re-analysis of the deposited data

How the results depend on the processing

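Esr1 and Kit kept direction and call in every alternative run: Esr1 between 0.95 and 1.21 on the log2 scale and Kit between 0.78 and 0.86, libraries left out included. With each chromosome's median subtracted 4 members were higher, through Prlr (0.50) and Sox10 (0.39), both on chromosome 15. The cause of that median was not tested. The log2 fold change of Elf5 ran from -0.022 to 0.074 with libraries left out and turned sign without WT library 2 and without AXL KO library 1. At an adjusted p of 0.01, 1610 genes were higher and 1464 lower over all genes, and 20 genes of the 9 lists were lower. With libraries left out, all tested genes lower in AXL KO numbered 1733 (without AXL KO library 3) to 2828. The replicate numbers did not pair the libraries: same-numbered deviations correlated at -0.06, -0.13 and 0.09, and 0 of 6 libraries correlated best with their own number. With the replicate number as a block, 2 members were higher, Esr1 at 1.01 and Kit at 0.82, with 2458 for all tested genes higher in AXL KO and 2373 for all tested genes lower in AXL KO. Under the block Erbb2 was not called (adjusted p = 0.0761, edgeR), and Lalba (0.00617) and Socs3 (0.0415) were. Of 265 recomputed list medians 43 moved by more than the replicate spread, and of 570 list counts 67 moved by over 1.5 times. Low counts limit Pgr, which entered the fits without a filter and with DESeq2 only, and Trp63, which a minimum mean log2 CPM of 2 removed. Foxa1, at 0, entered none.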
